A study of Mus musculus with 12 samples.

Results

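Granins are acidic secretory proteins that neurons and endocrine cells pack into dense-core vesicles together with neuropeptides and hormones, and prohormone processing enzymes cut the precursors inside those vesicles into active peptides. The set described here holds 10 genes. The granin cargo is encoded by Vgf, Chga, Chgb, Scg2 and Scg3, the convertases by Pcsk1 and Pcsk2, an inhibitor and a chaperone of the convertases by Pcsk1n and Scg5, and a carboxypeptidase by Cpe. Members were chosen by symbol, as the rows of the count table whose Ensembl identifier carries one of those names. In this way 10 of 50563 genes were taken. The names were chosen with earlier results of these data known, and the study had already reported Vgf as raised by its treatment. All 10 passed the filter on low counts.

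The granins are cleaved at pairs of basic residues by the convertases, which are themselves restrained by the product of Pcsk1n in the case of the enzyme from Pcsk1, and brought to activity with the product of Scg5 in the case of the enzyme from Pcsk2. Carboxypeptidase E then trims the exposed basic residues. Vgf was first known as a transcript induced by nerve growth factor, and several of these genes carry a cyclic AMP response element in their promoter and respond to neuronal activity in culture. Granin peptides in cerebrospinal fluid are widely studied in Alzheimer's disease as readouts of neurons and their synapses.

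RNA-Seq libraries came from the cortex of 12 E4FAD mice, 1 library per mouse, and all 12 mice shared the genotype APOE4+/+, 5FAD-/+, so that they carried human APOE4 in place of the mouse gene together with the familial Alzheimer's disease transgenes for the amyloid precursor protein and presenilin, which the neuronal Thy1 promoter drives. The DPAn-6 group (n = 5, of which 2 were 12 months old and 3 were 14 months old) received omega-6 docosapentaenoic acid daily by gavage at 700 mg/kg for 3 weeks. The CTRL group (n = 7, of which 2 were 12 months old and 5 were 14 months old) was gavaged with vehicle. By the study's methods both groups held females and males, but the sex of each mouse is not in the labels. No group without the transgenes was in the series, so a difference between the groups says nothing about the level in mice without amyloid.

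Total counts per mouse were 15339098 to 19500154 in CTRL (median 17449553) and 15208803 to 26520251 in DPAn-6 (median 18400132). Markers of excitatory neurons summed to 8920 to 11007 CPM, which are counts scaled to a common library total. Those of the hypothalamus, a region rich in neuropeptides, summed to 0.921 to 2.18 CPM. Hippocampal markers summed to 319 to 524 CPM in CTRL and 266 to 397 CPM in DPAn-6. Thalamic markers summed to 66.3 to 95.6 CPM in CTRL and 66.7 to 73.2 CPM in DPAn-6. Both were highest in CTRL replicate 3. CTRL replicate 3 stood apart, with a median correlation to its group of 0.962 over genes against 0.985 to 0.991 for the other 11 libraries, and results that rest on it are given with and without it. Choroid plexus markers differed between libraries, with sums of 14.3 to 1696 CPM in CTRL (highest in CTRL replicate 2, followed by 1052 in CTRL replicate 5) and 9.47 to 26.6 CPM in DPAn-6. The 11 microglial markers summed to 1129 to 1701 CPM in CTRL and to 752 to 1097 CPM in DPAn-6, so every DPAn-6 mouse lay below every CTRL mouse. In tissue RNA, fewer cells of a type and less RNA per cell cannot be told apart.

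Promoter windows are shown for every member that holds the short cyclic AMP motif upstream of its start, whether or not its level changed. The RefSeq promoter table of GRCm38.p6, which spans 250 bases before to 50 bases after each gene's start, had entries for 8 of the 10 members, and Vgf and Cpe were not among them. Searched on both strands, the full cyclic AMP response element TGACGTCA was found in 3 of the 8, namely Scg2, Chgb and Pcsk1, and its shorter form TGACG, which the full element contains on either strand, was found in 7 of the 8. In the windows of 30 bases below, written 5′ to 3′ on the gene's own strand, capitals mark the motif. The full motif lies at chr1:79440076-79440105 on the minus strand for Scg2, at chr2:132781559-132781588 on the plus strand for Chgb and at chr13:75089768-75089797 on the plus strand for Pcsk1. The short form lies at chr12:102554885-102554914 on the plus strand for Chga, at chr9:75684069-75684098 on the minus strand for Scg3, at chr2:113829249-113829278 on the minus strand for Scg5 and at chr2:143546087-143546116 on the plus strand for Pcsk2, where it is read on the opposite strand as CGTCA.
Scg2: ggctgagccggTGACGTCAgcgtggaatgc
Chgb: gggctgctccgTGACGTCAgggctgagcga
Pcsk1: ccaggtagatcTGACGTCAagagatggctt
Chga: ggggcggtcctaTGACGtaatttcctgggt
Scg3: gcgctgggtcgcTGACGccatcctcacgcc
Scg5: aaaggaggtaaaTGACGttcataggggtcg
Pcsk2: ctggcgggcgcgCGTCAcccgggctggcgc
Counted from the start in the RefSeq table, the motif began 68 bases before it in Scg2, 72 in Chgb, 78 in Pcsk1, 44 in Chga, 30 in Scg3, 175 in Scg5 and 34 in Pcsk2. Those RefSeq starts were 79440026 for Scg2, 132781642 for Chgb, 75089857 for Pcsk1, 102554941 for Chga, 113829091 for Scg5 and 143546133 for Pcsk2. They differ from the ends of the GENCODE gene spans given with each gene, so the Chgb and Scg2 windows lie inside the GENCODE span. For Scg3 the start, 75684056, is the same in both. Over all 32851 promoters of the table, 1.79% held TGACGTCA and 20.8% held TGACG, and among the 11617 tested genes with a promoter in the table the shares were 3.46% and 34.0%. The activator protein element TGANTCA was found in 1 of the 8 members, Pcsk1n, and in 7.81% of all promoters. Of the 7 genes shown, Scg2 passed the test between the groups. A match of letters is a description of the sequence, and binding was not measured.

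Per exon length, the members spanned a wide range of levels in CTRL cortex. Cpe was the most abundant, with 9.52 ± 0.10 log2 RPKM (SD, n = 7), followed by Pcsk1n with 7.90 ± 0.43, Chgb with 7.55 ± 0.26 and Scg3 with 6.83 ± 0.15. The middle of the order held Scg5 with 6.44 ± 0.18, Vgf with 6.31 ± 0.24, Pcsk2 with 6.02 ± 0.15 and Scg2 with 5.66 ± 0.19. Chga with 5.20 ± 0.18 and Pcsk1 with 2.20 ± 0.16 were the lowest. The order of neighbours held in all 7 CTRL mice for Cpe over Pcsk1n, Chgb over Scg3, Scg3 over Scg5, Pcsk2 over Scg2 and Chga over Pcsk1. It held in 6 of 7 for Pcsk1n over Chgb, Vgf over Pcsk2 and Scg2 over Chga, and in 5 of 7 for Scg5 over Vgf, whose ranges overlapped. In DPAn-6, the mean of Vgf, 6.79 log2 RPKM, lay above that of Scg5, 6.46. Together the 10 genes took 0.417% to 0.474% of all counts in a library, and Cpe alone 0.168% to 0.207%.

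**Figure D1:**
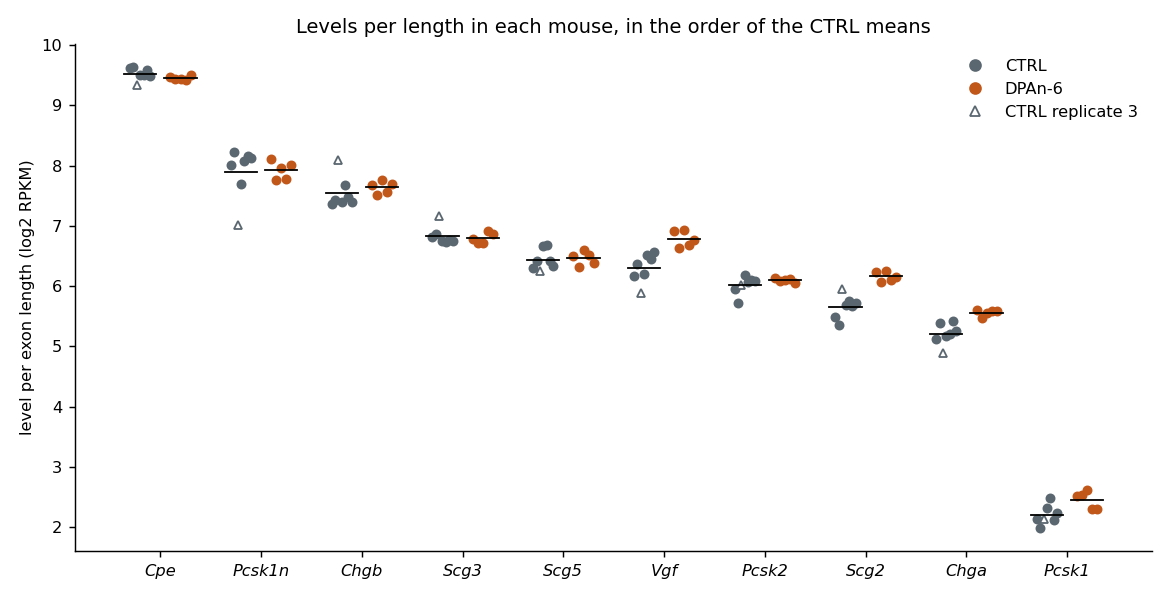
Level per exon length (log2 RPKM, y axis) of each of the 10 genes (x axis, ordered by the CTRL mean) in each of 7 CTRL and 5 DPAn-6 mice, with the group mean as a line and CTRL replicate 3 as an open triangle. Cpe lies near 9.5 and Pcsk1 near 2.2 in CTRL, and the DPAn-6 points of Vgf, Scg2 and Chga lie above their CTRL points.

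Of the 10 members, 2 rose in DPAn-6 by edgeR's quasi-likelihood test with an adjusted p below 0.05, Scg2 and Vgf, and 0 fell. Over all 15688 genes tested, 1.55% passed in either direction, 0.408% as higher and 1.14% as lower. At an unadjusted p below 0.05, 4 members were higher (Scg2, Vgf, Chga and Pcsk1), against 5.51% of all genes, and 3 members did not overlap between the groups, all higher in DPAn-6, against 1.73% of all genes in that direction and 3.22% in either. The fitted change was positive for 6 of the 10 and for 48.7% of all genes, and the members' median log2 fold change was 0.05 against −0.00 over all genes. The genes that rose or came closest to the threshold were all granin cargo, and the median of the set lay near that of all genes. CTRL replicate 3 was the lowest or highest CTRL mouse in 8 of the 10 members. Without it 3 members passed by edgeR, Scg2, Vgf and Chga, where 6.1% of all genes did, and 6 had an unadjusted p below 0.05, where 23.1% did.

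Scg2 encodes secretogranin II, the precursor of the peptide secretoneurin (ENSMUSG00000050711; GRCm38 chromosome 1, 79434669 to 79440120, minus strand). Its level in CTRL was 6.68 log2 CPM at the lowest, 7.02 at the median and 7.29 at the highest, and in the 5 DPAn-6 mice it was 7.57, 7.40, 7.59, 7.42 and 7.48. Every DPAn-6 mouse lay above every CTRL mouse, although the highest CTRL value came from CTRL replicate 3. The group means were 6.99 ± 0.19 (SD, n = 7) and 7.49 ± 0.09 (SD, n = 5), and the fitted log2 fold change of 0.47 (standard error 0.09, 95% interval 0.27 to 0.66), or 38.1% more, had an adjusted p of 0.0214 by edgeR. The two-sided exact permutation test gave p = 0.00126, the smallest that groups of 7 and 5 allow. Without CTRL replicate 3 the change was 0.53 and the adjusted p by edgeR 0.000446. The adjusted p rose above 0.05 without DPAn-6 replicate 1 (0.0730), 3 (0.0906), 4 (0.0537) or 5 (0.0608) by edgeR, with changes of 0.44 to 0.49.

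Vgf encodes a granin-like precursor of several neuropeptides (ENSMUSG00000037428; chromosome 5, 137026392 to 137033351, plus strand). CTRL mice had 7.45 log2 CPM at the lowest, 7.94 at the median and 8.13 at the highest, and the DPAn-6 mice had 8.49, 8.21, 8.50, 8.26 and 8.34. Again no DPAn-6 mouse overlapped with CTRL, and here CTRL replicate 3 was the lowest of all 12 mice. The means of 7.88 ± 0.24 (SD, n = 7) and 8.36 ± 0.13 (SD, n = 5) gave a fitted log2 fold change of 0.45 (standard error 0.10, 95% interval 0.23 to 0.66), or 36.2% more, with an adjusted p of 0.0412 by edgeR and an exact permutation p of 0.00379. Without CTRL replicate 3 the change was 0.39 and the adjusted p by edgeR 0.00837. Vgf lay close to the threshold, and its adjusted p by edgeR passed 0.05 on leaving out CTRL replicate 1 (0.0847), 2 (0.0647), 4 (0.0806) or 6 (0.0555) or DPAn-6 replicate 1 (0.118), 2 (0.0577), 3 (0.143), 4 (0.0753) or 5 (0.0831), with changes of 0.41 to 0.49.

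Chga encodes chromogranin A, the founding granin of endocrine cells (ENSMUSG00000021194; chromosome 12, 102554969 to 102565028, plus strand). Its CTRL levels ran from 6.35 through a median of 6.67 to 6.88 log2 CPM, and its DPAn-6 levels were 7.07, 6.93, 7.02, 7.04 and 7.05. All 5 treated mice were above all 7 CTRL mice, and they lay within a narrow range (SD 0.05 against 0.18 in CTRL). The fitted log2 fold change was 0.32 (standard error 0.08, 95% interval 0.16 to 0.49), which is 25.2% more. Its unadjusted p of 0.000872 became an adjusted p of 0.0533 by edgeR, just outside the threshold, while the exact permutation p was 0.00253. Leaving out CTRL replicate 2 (0.0433), 3 (0.0116) or 6 (0.0464) brought the adjusted p by edgeR below 0.05, with changes of 0.28 to 0.36.

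Chgb and Scg3 are the most abundant granins of this cortex per length, and neither passed the test. Chgb, chromogranin B (ENSMUSG00000027350; chromosome 2, 132781278 to 132795079, plus strand), had 8.82, 8.88 and 9.54 log2 CPM in CTRL at the lowest, median and highest mouse, and 9.14, 8.96, 9.21, 9.02 and 9.15 in DPAn-6. Its fitted change was 0.05 (95% interval −0.21 to 0.30, adjusted p = 0.907 by edgeR), and the highest of all 12 values was that of CTRL replicate 3. Without that library the change was 0.17, the unadjusted p 0.0143 and the adjusted p 0.115 by edgeR, and the exact permutation p was 0.0281 in place of 0.501.

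Scg3, secretogranin III, binds chromogranin A at the vesicle membrane (ENSMUSG00000032181; chromosome 9, 75643189 to 75684056, minus strand). CTRL values were 8.19, 8.22 and 8.62 log2 CPM at the lowest, median and highest, and the DPAn-6 values were 8.24, 8.17, 8.16, 8.36 and 8.31. The groups overlapped, the fitted change was −0.07 (95% interval −0.25 to 0.11, adjusted p = 0.784 by edgeR), and without CTRL replicate 3, again the highest mouse, it was 0.00.

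**Figure D2:**
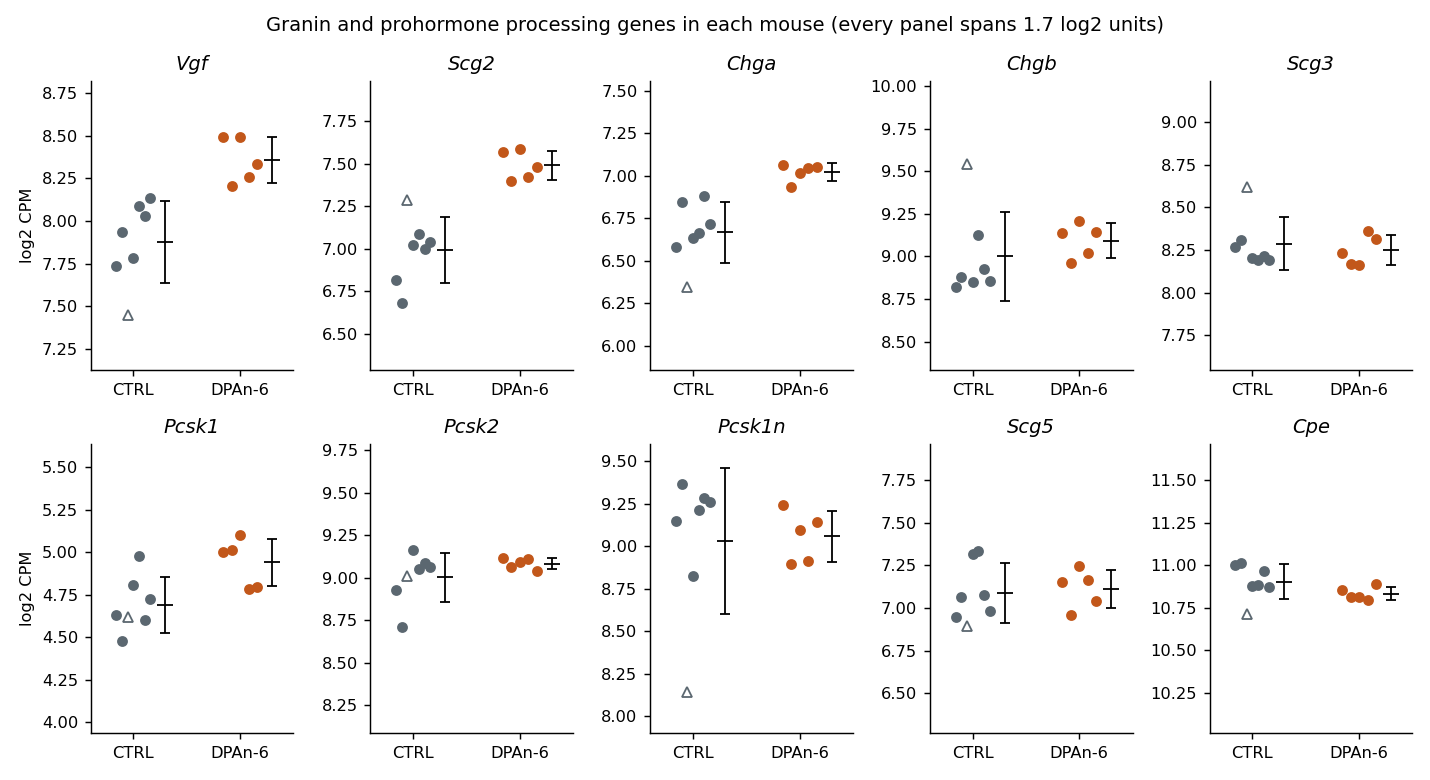
Log2 CPM (y axis, every panel spanning 1.7 log2 units) of the 10 genes in 7 CTRL and 5 DPAn-6 mice (x axis), with mean ± SD beside the points and CTRL replicate 3 as an open triangle. Vgf, Scg2 and Chga show no overlap between the groups, the other 7 genes overlap, and the triangle is the lowest or highest CTRL point in 8 of the 10 panels.

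Among the processing genes, Pcsk1 alone had an unadjusted p below 0.05, and none passed after adjustment. Pcsk1 encodes the convertase that acts first on many precursors (ENSMUSG00000021587; chromosome 13, 75089826 to 75134861, plus strand) and had the fewest reads of the set, 347 to 737 per mouse. CTRL mice had 4.48 log2 CPM at the lowest, 4.63 at the median and 4.98 at the highest, and DPAn-6 mice had 5.00, 5.01, 5.10, 4.79 and 4.80. All 5 treated mice were above the CTRL mean and 3 were above every CTRL mouse. A log2 fold change of 0.22 was fitted (standard error 0.09, 95% interval 0.03 to 0.42, unadjusted p = 0.0260, adjusted p = 0.261 by edgeR), and the exact permutation p was 0.0265. On leaving out DPAn-6 replicate 1, 2 or 3 that exact p became 0.0545, 0.0576 or 0.0667.

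Pcsk2, the later acting convertase (ENSMUSG00000027419; chromosome 2, 143546156 to 143816285, plus strand), had 8.71, 9.05 and 9.16 log2 CPM in CTRL at the lowest, median and highest, and 9.11, 9.06, 9.09, 9.11 and 9.04 in DPAn-6. The treated mice sat together inside the CTRL range. A change of 0.05 (95% interval −0.10 to 0.20, adjusted p = 0.801 by edgeR) was fitted. The antisense transcript Pcsk2os1 overlaps 260 exonic bases of Pcsk2 on the other strand and had 53 to 93 counts per mouse against 6538 to 13971 for Pcsk2 (how reads were split by strand is not given in the sources).

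Pcsk1n encodes proSAAS, the inhibitor of the convertase made from Pcsk1 (ENSMUSG00000039278; chromosome X, 7919822 to 7924410, plus strand), and it was the member with the widest spread. In CTRL it ran from 8.14, in CTRL replicate 3, through a median of 9.21 to 9.36 log2 CPM, and in DPAn-6 it was 9.24, 8.90, 9.09, 8.91 and 9.14. The fitted change was −0.04 with a 95% interval of −0.37 to 0.30 (adjusted p = 0.949 by edgeR), so that a rise of the size seen in Scg2 lies outside the interval. Without CTRL replicate 3 it was −0.14 (adjusted p = 0.334 by edgeR).

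Scg5 encodes the chaperone of the Pcsk2 convertase (ENSMUSG00000023236; chromosome 2, 113776362 to 113829121, minus strand). Its CTRL values were 6.89, 7.07 and 7.34 log2 CPM at the lowest, median and highest, and its DPAn-6 values were 7.15, 6.96, 7.24, 7.17 and 7.04. The groups overlapped fully, with a change of −0.00 (95% interval −0.19 to 0.18, adjusted p = 0.993 by edgeR).

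Cpe, carboxypeptidase E (ENSMUSG00000037852; chromosome 8, 64592542 to 64693054, minus strand), was the only member with every DPAn-6 mouse below the CTRL mean. CTRL values were 10.71, 10.89 and 11.02 log2 CPM at the lowest, median and highest, and DPAn-6 values were 10.86, 10.81, 10.81, 10.80 and 10.89. The fitted change was −0.10 (95% interval −0.21 to 0.02, adjusted p = 0.441 by edgeR) with an exact permutation p of 0.178. Without CTRL replicate 3, the lowest mouse, the change was −0.12, the unadjusted p 0.0102, the adjusted p 0.0962 by edgeR and the exact permutation p 0.0216.

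**Figure D3:**
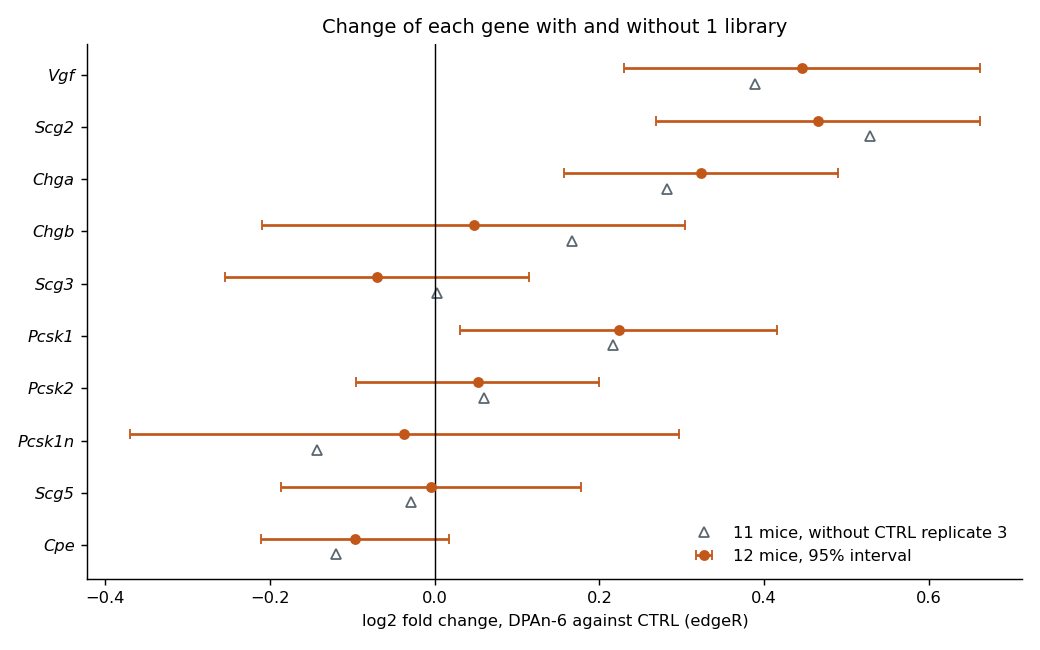
Log2 fold change of DPAn-6 against CTRL (x axis) for each of the 10 genes (y axis) from edgeR, as a filled point with its 95% interval over 12 mice and as an open triangle over 11 mice without CTRL replicate 3. The intervals of Vgf, Scg2, Chga and Pcsk1 lie above 0, and leaving out the 1 library lowers Vgf from 0.45 to 0.39 and raises Scg2 from 0.47 to 0.53 and Chgb from 0.05 to 0.17.

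The split within the set was also seen as ratios within a library, which do not depend on how libraries are scaled. The log2 ratio of Scg2 over Chgb was −2.25 to −1.81 in CTRL and −1.67 to −1.56 in DPAn-6, and that of Vgf over Cpe was −3.26 to −2.74 and −2.61 to −2.32. In both ratios all 5 DPAn-6 mice lay above all CTRL mice, as they did for Scg2 and Vgf alone. The ratio of Pcsk1 over its inhibitor Pcsk1n overlapped, with −4.89 to −3.52 in CTRL and −4.34 to −3.88 in DPAn-6, the highest value being that of CTRL replicate 3. So did Pcsk2 over its chaperone Scg5, with 1.64 to 2.11 and 1.84 to 2.10. These ratios use the same values as the changes above and are given with no test of their own.

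**Figure D4:**
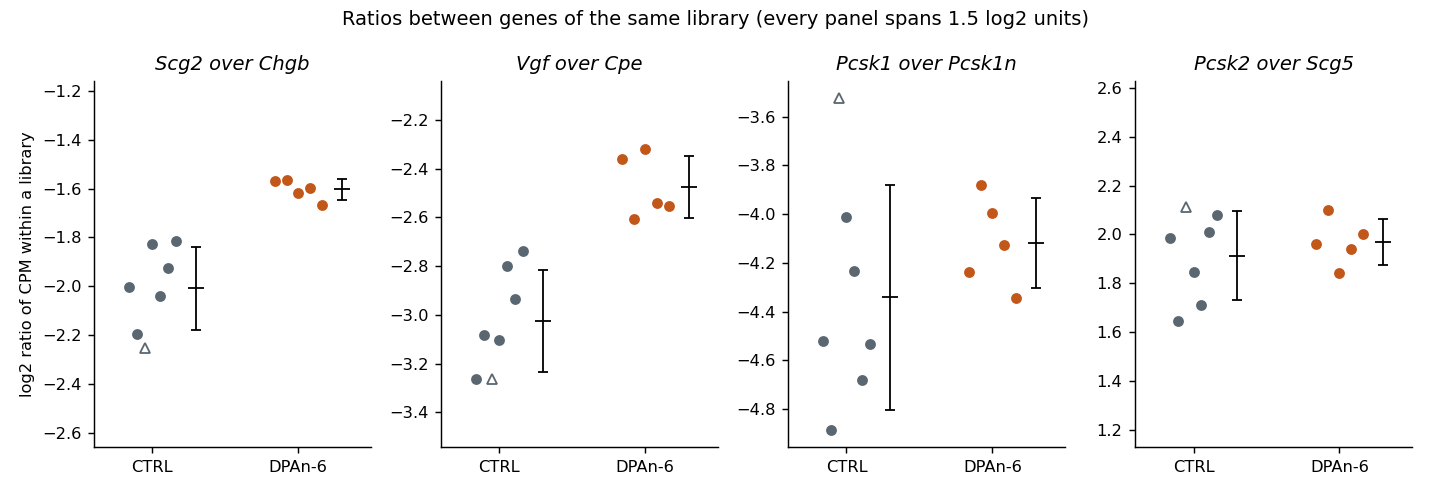
Log2 ratio of CPM between genes of the same library (y axis, every panel spanning 1.5 log2 units) in 7 CTRL and 5 DPAn-6 mice (x axis), with mean ± SD and CTRL replicate 3 as an open triangle. Scg2 over Chgb and Vgf over Cpe separate the groups, with DPAn-6 at −1.67 to −1.56 and −2.61 to −2.32, and both convertase ratios overlap.

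The labels give 2 ages, and Scg2, Vgf and Chga were higher in DPAn-6 at both. Their groups did not overlap over all 12 mice, so a higher mean log2 CPM at each age had to follow. In the 12-month mice, with 2 per group, the log2 fold change was 0.57 for Scg2, 0.43 for Vgf and 0.37 for Chga, and in the 14-month mice, with 5 CTRL and 3 DPAn-6, it was 0.43, 0.46 and 0.31. Scg2 had 6.82 and 7.04 log2 CPM in the 12-month CTRL mice and 7.59 and 7.42 in the DPAn-6 mice of that age. In the 14-month mice alone, 0 members passed the adjusted threshold of edgeR, where 0.0564% of all genes did, and 3 had an unadjusted p below 0.05, where 8.96% did. There the exact permutation test gave p = 0.0179 for Scg2, the smallest for groups of 5 and 3, and p = 0.0357 for Vgf and for Chga. Both values rest on the same separation of the groups. In the 12-month mice alone 2 members passed by edgeR, Scg2 (adjusted p = 0.00575) and Chga (adjusted p = 0.0218), where 4.55% of all genes did, and Vgf had an adjusted p of 0.0541.

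Age itself and the difference of the effect between ages gave 0 called members by edgeR. For 14 against 12 months, 0 members had an unadjusted p below 0.05 where 1.78% of all genes did, and the fitted age effects of the 10 lay between −0.06 and 0.12 on the log2 scale. For the difference of the DPAn-6 effect between the ages, 1 member, Scg5, had an unadjusted p below 0.05 (0.0488, adjusted p = 0.905), where 4.26% of all genes did and 0.00637% passed after adjustment. Its change was 0.24 at 12 months and −0.12 at 14 months. DESeq2 and limma-voom also called 0 members for either question.

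Lists of related genes place the set in its pathway, and their counts are read beside all genes. Of all genes 1.55% passed, 0.408% as higher, 14.5% had an unadjusted p below 0.05 and 48.7% a positive change. These lists were also chosen with earlier results known, and the study had already reported Adcyap1 and Nptx2 as higher and Tmem119 as lower. Of 25 genes of the dense-core vesicle machinery, which sort, move and release the vesicles, 16 were higher and 1 passed by edgeR, with a median change of 0.09, and at an unadjusted p below 0.05 4 were higher and 3 lower. That gene, Ptprn2, encodes a membrane protein of the vesicle, and it had at most 8.37 log2 CPM in CTRL and 8.50 to 8.65 in DPAn-6 (log2 fold change 0.35 ± 0.07 standard error, adjusted p = 0.0170 by edgeR, exact permutation p = 0.00126). Of 13 other processing enzymes, such as furin and the amidating enzyme, 5 were higher and 0 passed by edgeR, where 2 had an unadjusted p below 0.05 (Ctsl, a lysosomal and vesicular protease, −0.19 with adjusted p = 0.221, and Pcsk4, a convertase of germ cells, −0.49 with adjusted p = 0.281). Their median change was −0.02.

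The list of peptide precursors, the cargo that these enzymes cut, also held Crhbp, which is a binding protein and not a precursor. In this list 17 of 20 genes were higher, with a median change of 0.30. By edgeR 4 rose, Crhbp among them, where 0.408% of all genes did. Adcyap1, the precursor of the pituitary adenylate cyclase-activating peptide, had 2.95 to 3.48 log2 CPM in CTRL and 3.85 to 4.25 in DPAn-6 (log2 fold change 0.77, adjusted p = 0.00302 by edgeR). Crh, corticotropin-releasing hormone, went from 1.44 to 2.08 in CTRL to 2.23 to 2.88 in DPAn-6 (0.68, adjusted p = 0.0302 by edgeR). Its binding protein Crhbp rose by 0.46 (adjusted p = 0.0214 by edgeR) and the neurotrophin Bdnf by 0.56 (adjusted p = 0.0276 by edgeR). In all 4 genes the 5 DPAn-6 mice were above every CTRL mouse.

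Some genes induced by neuronal activity were also among those that rose. Of 13 early activity genes 10 were higher and 1 passed by edgeR, where 1.55% of all genes passed, with a median of 0.15 for the list. That gene, Fosl2, encodes a partner of the Jun transcription factors (log2 fold change 0.44, adjusted p = 0.0464 by edgeR, 4 of 5 DPAn-6 mice above every CTRL mouse). At an unadjusted p below 0.05 by edgeR 4 were higher and 1 lower, and the changes in the list ran from −0.49 to 0.51. In that list 9 genes passed in the 12-month mice alone, where 4.55% of all genes did. In the 14-month mice alone 0 passed, where 0.0564% of all genes did, and without CTRL replicate 3 5 passed, where 6.1% did. Of 10 late activity genes 9 were higher, with a median of 0.25. By edgeR 0.408% of all genes passed as higher, and 3 genes of this list did. They were Inhba, an activin subunit (0.70, adjusted p = 0.0299), Nptx2, which clusters receptors at excitatory synapses (0.67, adjusted p = 0.0134), and Nrn1, a neurite growth protein (0.42, adjusted p = 0.0260). Of 12 factors that bind or serve the cyclic AMP element or silence neuronal genes, 5 were higher and 0 passed by edgeR, with a median of −0.08 and 1 unadjusted p below 0.05. Crem, an activator and repressor at that element, had a change of 0.25 (adjusted p = 0.212 by edgeR) and Rest, a silencer of neuronal genes, one of −0.24 (adjusted p = 0.364 by edgeR).

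**Figure D5:**
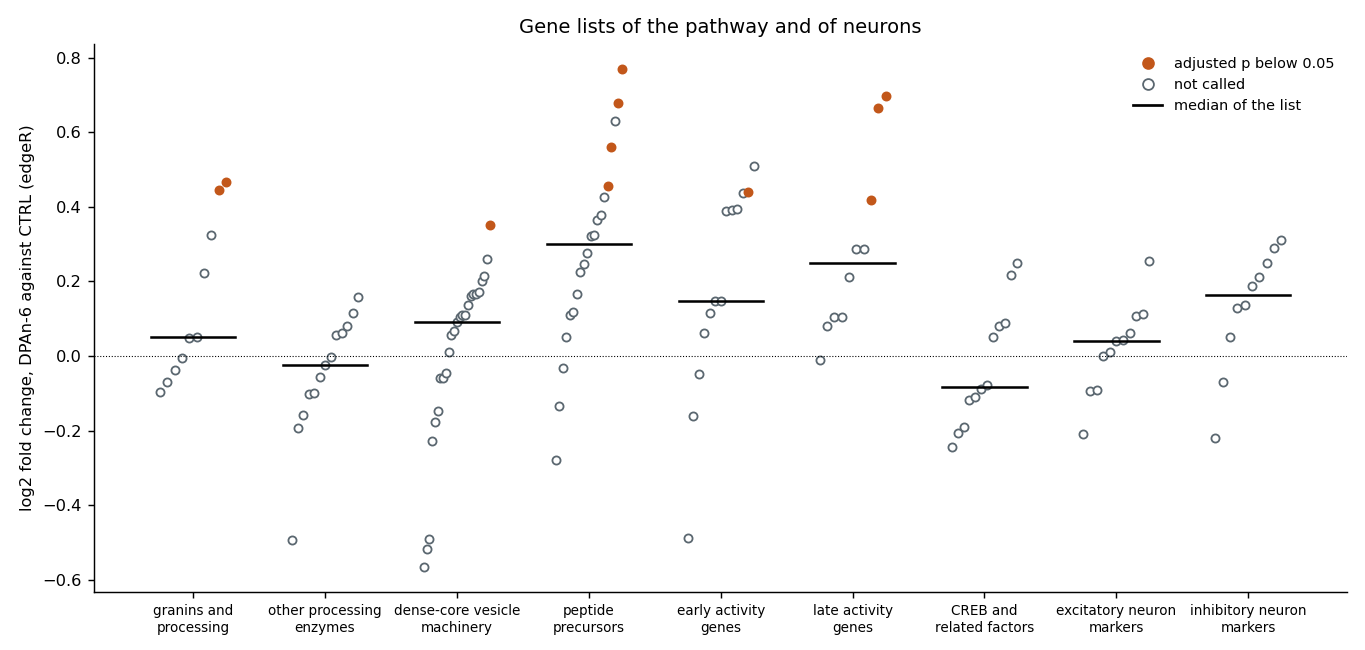
Log2 fold change of DPAn-6 against CTRL from edgeR (y axis) for every tested gene of the set and of 8 lists (x axis), with called genes filled, others open and the median of each list as a line. The median is 0.05 for the granins and processing genes, 0.30 for the peptide precursors, 0.25 for the late activity genes and −0.02 for the other processing enzymes.

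Markers of cell types were counted in the same way, since the granins are made by neurons. Of 10 pan-neuronal markers 9 were higher, 0 passed by edgeR and the median change was 0.09, and the summed level was 7437 to 11123 CPM in CTRL and 8533 to 9316 CPM in DPAn-6. For 11 excitatory markers 8 were higher and 0 passed (median 0.04), and for 10 inhibitory markers 8 were higher and 0 passed (median 0.16). At an unadjusted p below 0.05 by edgeR these 3 lists held 3, 2 and 2 genes, of which 1 in each list was lower. The lowest p in each belonged to Stmn2, a growth cone protein (change 0.13, adjusted p = 0.239 by edgeR), to Neurod2, a transcription factor of excitatory neurons (0.25, adjusted p = 0.0626), and to Reln, which is secreted by interneurons (−0.22, adjusted p = 0.151). Without CTRL replicate 3, Neurod2 passed by edgeR (0.27, adjusted p = 0.00893), as did Snap25, a pan-neuronal protein of vesicle fusion (0.29, adjusted p = 0.0238), and 0 inhibitory markers did. In that fit 6.1% of all genes passed. Of 11 microglial markers 0 were higher and 4 fell by edgeR (C1qb, C1qc, Tmem119 and Csf1r, by 1.02, 0.97, 0.77 and 0.50 on the log2 scale), and of 6 tested choroid plexus markers 0 were higher and 0 passed (Ttr −6.01, adjusted p = 0.0553). Astrocyte markers were higher in 1 of 8 cases, oligodendrocyte markers in 6 of 8 and markers of the striatum, which lies beneath the cortex, in 8 of 8, with 0 called in each list by edgeR and 3, 5 and 1 at an unadjusted p below 0.05. Their summed levels overlapped between the groups. For the oligodendrocyte markers that overlap came from CTRL replicate 1 alone, at 6804 CPM. The remaining CTRL mice had 5141 to 5887 CPM and the DPAn-6 mice 6030 to 6877 CPM. With Ttr, the leading choroid plexus transcript, as covariate, 0 members passed by edgeR and 17 genes did in all, with changes of 0.45 for Vgf, 0.45 for Scg2 and 0.34 for Chga. Without CTRL replicates 2 and 5, the libraries with the highest choroid plexus levels, 0 members and 85 genes passed. The changes of Vgf, Scg2 and Chga were then 0.50, 0.43 and 0.36. These 3 genes did not overlap between the full groups, so they had to stay apart with CTRL mice left out. Their exact permutation p of 0.00794 each follows from that separation and adds no separate support. The part of microglial, astrocyte, oligodendrocyte or striatal RNA in these results was not tested.

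Within the groups, the members varied together only in part. Log2 CPM was centred on the group mean, so that the difference between the groups could not produce a correlation, and 45 pairs of members were compared over 12 mice by permutation within groups. Of these, 0 passed after adjustment over the pairs by Pearson's r, and r was positive in 24 of 45. Chga and Pcsk1n had the highest r, 0.87 (permutation p = 0.00238, adjusted 0.0619), with a Spearman rho of 0.86 (permutation p = 0.000440, adjusted 0.0198), and r was 0.65 without the 2 mice farthest from the median and 0.64 without CTRL replicate 3. Vgf and Pcsk1n had an r of 0.85 (permutation p = 0.00275, adjusted 0.0619) and a rho of 0.71 (permutation p = 0.0184, adjusted 0.221), with an r of 0.68 without the 2 farthest mice and 0.68 without CTRL replicate 3. Chgb and Scg2 had 0.77 (permutation p = 0.0107, adjusted 0.0961) with a rho of 0.66 (permutation p = 0.0252, adjusted 0.221), which became 0.45 without the 2 farthest mice and 0.58 without CTRL replicate 3. Pcsk1n and Cpe had 0.85 (permutation p = 0.00775, adjusted 0.0961) with a rho of 0.69 (permutation p = 0.0295, adjusted 0.221), and 0.41 and 0.53 on leaving those mice out. The most negative pair was Scg2 and Cpe, with an r of −0.81 (permutation p = 0.00967, adjusted 0.0961) and a rho of −0.51 (permutation p = 0.121, adjusted 0.453), and −0.47 and −0.66 on leaving them out. Vgf and Scg3 had an r of −0.74 (permutation p = 0.0221, adjusted 0.142) and a rho of −0.61 (permutation p = 0.0493, adjusted 0.317), and −0.28 and −0.33 on leaving them out. Vgf and Chgb turned with CTRL replicate 3, from an r of −0.40 (permutation p = 0.312, adjusted 0.518, rho 0.098 with permutation p = 0.784) to 0.68 without that library (permutation p = 0.0265, adjusted 0.190) and 0.86 without the 2 farthest mice.

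Vgf was compared with the inflammatory, apoptotic and synaptic genes that the study relates to it, and each other member with Cd68, a lysosomal marker of activated microglia, in 18 pairs. By the centred measure 0 of 18 passed after adjustment. Vgf and Il6st, the shared signalling receptor of the interleukin-6 family, had an r of −0.79 (permutation p = 0.00329, adjusted 0.0592) and a rho of −0.69 (permutation p = 0.0257, adjusted 0.141), with −0.84 without the 2 farthest mice and −0.68 without CTRL replicate 3. Vgf and Cd68 had an r of −0.63 (permutation p = 0.0181, adjusted 0.109) and a rho of −0.69 (permutation p = 0.0135, adjusted 0.122), with −0.57 and −0.53 on leaving those mice out. For Vgf and Nptx2 the r was 0.63 (permutation p = 0.0386, adjusted 0.139) with a rho of 0.62 (permutation p = 0.0432, adjusted 0.156), and 0.74 and 0.61 on leaving them out. Scg5, which did not differ between the groups, had an r of −0.70 with Cd68 (permutation p = 0.00696, adjusted 0.0626) and a rho of −0.73 (permutation p = 0.00999, adjusted 0.122), with −0.84 without the 2 farthest mice and −0.64 without CTRL replicate 3. Without centring, 12 of the 18 pairs passed. In 11 of those 12 at least 1 gene, and in 3 both, had no overlap between the groups, so the uncentred values also hold the difference between the groups and are not given.

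The genes most like each member in this centred pattern were searched among 13236 other genes with a mean of at least 1 log2 CPM, over 12 mice. For Vgf they were Pip5k1c (r = 0.98), Ubl7 (0.96), Rusc2 (0.95), Apba2 (0.95) and Csnk1e (0.95). None of these 5 passed the test between the groups, with changes of 0.00 to 0.15. For the other members the most alike were Shd for Chga (0.96), 2810455O05Rik for Chgb (0.96), Rasgrf1 for Scg2 (0.95), Phactr3 for Scg3 (0.96) and Mxi1 for Scg5 (0.92). For the processing genes they were Ovol2 for Pcsk1 (0.89), Klhdc2 for Pcsk2 (0.95), Evi5l for Pcsk1n (0.99) and Ilk for Cpe (0.96). The best of so many genes over 12 mice is high by selection, so these values are a description.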

How the data were processed

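RNA-Seq of the cortex of 12 mice was used, 7 CTRL and 5 DPAn-6. Per the labels and methods, poly(A)-selected KAPA libraries were aligned with STAR 2.5.3a to GRCm38 with Ensembl annotation, and the authors deposited raw, unscaled read counts for each gene. Which strand setting was taken for counting is not given in the sources used here, and reads of a gene and an overlapping antisense gene may therefore be mixed. All library columns matched a sample. Names and positions come from GENCODE M21, in which 50339 of 50563 identifiers were found.

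The quasi-likelihood test of edgeR 4.0.16 (R 4.3.3) was run on the counts after filterByExpr by group and TMM scaling, with Benjamini-Hochberg adjustment over all genes tested and calls at an adjusted p below 0.05. The study names limma-voom, which was an alternative here (limma 3.58.1), as was DESeq2 1.42.0. Log2 CPM, with 0.5 added to each count, was compared between group means by exact permutation over all splits, on both sides, and log2 RPKM divides further by exon length. Correlations used 100000 permutations within groups (Python 3.11.15, numpy 2.4.6, scipy 1.17.1, pandas 2.3.3). The statistics were tested on simulated data. Total counts were 15208803 or more per mouse, with at least 347 counts for every member. Counting error was not separated from the spread between mice.

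Named were all 10 members, the genes that the study pairs with Vgf, in each list the called genes with the largest changes (at most 4, or the 2 with the lowest p where none was called), and the genes most like each member. Microglial and neuronal lists are markers chosen from general knowledge. The members and lists were chosen with earlier results of these data known. Alternatives were other tests, scalings and filters, age, Xist or Ttr as covariate, the ages apart, the replicate number as a block, removal of each library's trend on gene length and GC content, and each mouse left out in turn. Leaving out CTRL replicates 2 and 5 was added after the data were seen.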

Additional observations from a re-analysis of the deposited data

Results flagged for a closer look

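In 2 of 28 groups of values tested for a library far from the others (10 genes and 4 ratios in each treatment group), 1 library lay beyond Dixon's limit, and chance gives about 1 in 20. Both were CTRL replicate 3. Its Chgb level was 9.54 log2 CPM, with a gap to the next CTRL mouse of 0.573 of the group's range, and its Scg3 level was 8.62 log2 CPM, with a gap of 0.723 of the range. The difference of the DPAn-6 effect between 12 and 14 months passed for 0 members by edgeR, with 1 unadjusted p below 0.05 and 0 by DESeq2 and limma-voom.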

How the results depend on the processing

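The 3 changes that separate the groups kept their direction in all 28 alternatives. On the log2 scale they were 0.42 to 0.57 for Scg2, 0.38 to 0.54 for Vgf and 0.28 to 0.38 for Chga. In the fits that only leave mice out, this direction follows from the lack of overlap. The calls of the 3 genes did not all hold. Members called by the adjusted p were 0 in the 14-month mice, 0 with Ttr as covariate, 0 with the replicate block, 0 without CTRL replicates 2 and 5 (added after the data were seen), 1 with age as covariate, 0 to 3 with 1 mouse left out and 2 or 3 under each of the other alternatives. Genes called in all, 243 as reported, were 709 in the 12-month mice, 9 in the 14-month mice, 696 by DESeq2, 1267 by limma-voom with sample weights, 224 by limma-voom alone, 17 with Ttr as covariate, 481 after the removal of the length and GC trend, 85 without CTRL replicates 2 and 5, and 64 (without DPAn-6 replicate 3) to 953 (without CTRL replicate 3) with 1 mouse left out. Several of these fits hold fewer mice, and the causes of the differing counts were not tested. By the exact permutation test, Scg2, Vgf and Chga stayed below 0.05 in all 16 alternatives. Most of these leave mice out, and groups that do not overlap then stay apart, so the small p-values add no separate support.

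The replicate block called 0 members and 69 genes, with changes of 0.49 for Scg2, 0.54 for Vgf and 0.38 for Chga, and the block together with the length and GC removal called 2 members. Replicate numbers are shared by the groups as names only. Same-numbered mice had correlated deviations of −0.13 to 0.22 in 5 pairs, with 1 above 0.1, and 0 DPAn-6 mice correlated best with their own number.

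Signs turned only for genes that were not called. Scg5 was positive in the 12-month mice (0.24), with Ttr (0.065), Xist (0.0036) or age (0.00039) as covariate, without TMM (0.018), without a filter (0.013) and without CTRL replicates 2 and 5 (0.044), and with 1 mouse left out it ran from −0.036 to 0.044. By log2 CPM it was −0.088 in the 14-month mice and −0.0089 to 0.066 with 1 mouse left out. Pcsk1n was positive in the 14-month mice (0.056), with Ttr (0.0025), by limma-voom (0.0011), with the block (0.095, and 0.0060 with the trend removed too) and without CTRL replicates 2 and 5 (0.061), and with 1 mouse left out it ran from −0.14 to 0.018, or −0.12 to 0.081 by log2 CPM. Scg3 turned to 0.028 in the 12-month mice and 0.0039 with Ttr, and with 1 mouse left out it ran from −0.091 to 0.0028, or −0.067 to 0.017 by log2 CPM. Pcsk2 turned to −0.044 with Ttr, and Chgb to −0.034 in the 14-month mice, −0.0047 with the trend removed and −0.026 with the block as well.

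Over the alternatives the genes called were 0 to 4 in the vesicle machinery, 0 to 5 in the peptide precursors, 0 to 9 in the early and 0 to 5 in the late activity genes, 0 to 1 in the cyclic AMP factors, the excitatory and the inhibitory markers, 0 to 2 in the pan-neuronal and 0 to 9 in the microglial markers, and 0 in the other processing enzymes throughout.

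Member pairs that passed numbered 1 without centring, 1 by Spearman's rho and 0 to 2 with 1 mouse left out. Pairs with Vgf or Cd68 numbered 12 without centring, 2 on TMM-scaled values, 3 in the 14-month mice and 0 to 3 with 1 mouse left out. All members had at least 347 counts in every mouse, and the part of depth in these results was not tested.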
